A study of Mus musculus with 12 samples.

Results

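Undifferentiated mouse embryonic stem cells (ESCs) of a line labelled KD1, which carries a knockdown of Smarcd1, were compared with cells of the same origin that carry a scrambled control. The comparison took the 2 undifferentiated arrays titled KD1 and the 2 titled scrambled, 4 of the 12 arrays of the series, and left out all arrays of differentiated cells. Both groups were R1 ESCs, an established line of male origin, kept in serum and leukaemia inhibitory factor (LIF) on mouse embryonic fibroblasts treated with mitomycin. The control or knockdown construct had been brought in by infection, and the labels speak of clones without saying how many a line holds. The cells of each group are called biological replicates, but no label says how the cultures were kept apart. The tests thus take the spread among these arrays as their error, and part of that spread may be technical. Other differences between the KD1 and scrambled lines cannot be told apart from the knockdown itself. A second knockdown line, KD2, gave 2 undifferentiated arrays, which share the scrambled arrays as controls. Cells labelled as differentiated for 4 days, without LIF and with 1 µM retinoic acid, gave 2 scrambled and 4 KD1 arrays, and these share no array with the ESC comparison.

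Smarcd1 codes for the protein BAF60a. It belongs to the SWI/SNF (BAF) chromatin remodelling complexes, which use ATP to move nucleosomes and so alter the access of transcription factors to DNA. Mouse ESCs move between a naive state, held by LIF and factors such as Nanog, Klf4 and Esrrb, and a state primed for differentiation, marked by Fgf5 and Otx2 and fed by FGF and Nodal signalling. Some cells of such cultures also express Gata6 and other genes of primitive endoderm, the lineage that forms the yolk sac. The Dlk1-Dio3 interval is an imprinted region in which the maternal chromosome expresses long noncoding RNAs and the miRNAs and small nucleolar RNAs processed from them, while the paternal chromosome expresses Dlk1, Rtl1 and Dio3.

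Values are the deposited log2 levels, which ran from 1.74 to 13.43 on these arrays, and a difference is the KD1 mean minus the scrambled mean with its SE from limma. Precision is limited by having 2 arrays in each group. The scrambled arrays correlated at 0.990 with each other across probe sets, and scrambled replicate 1 correlated at 0.988 and 0.985 with the KD1 arrays. Of 12175 genes tested with limma, 365 (3.00%) passed a Benjamini-Hochberg adjusted p of 0.05, which is what called means below. Of these, 137 (1.13%) were higher and 228 (1.87%) lower in KD1, and the median difference of all tested genes was -0.005. The 2 KD1 arrays lay wholly above or below the 2 scrambled arrays for 6500 genes (53.4%), so a lack of overlap alone says little here. Leaving out KD1 replicate 1 or KD1 replicate 2 left 0 genes called by limma, with 1684 and 1659 at an unadjusted p under 0.05. Leaving out scrambled replicate 1 gave 1230 calls and leaving out scrambled replicate 2 gave 385. In each of the 66 genes chosen by the naming rule the KD1 and scrambled arrays did not overlap. With any 1 of the 4 arrays left out, these genes could therefore not change sign, and none did. Some small differences printed below for genes that were not called did change sign, those of Smarcd2, Smarcd3, Id1, Id3, Dusp6, Lrp2, Dio3 and Sry among them. Genes had to exceed a log2 level of 4.58 on at least 2 arrays to be tested, so a gene dim in 1 group was tested because of the other. Of the called genes named by the rule, Adgrg6, Cubn, Kdr, Klb and Rian were bright in KD1 alone, and Dppa3, Eif2s3y, Fndc3c1, Klhl4, Uba1y, Uty and Vrtn in scrambled alone. In the fit with no such filter, over 19938 genes, limma called all 5 and all 7. At an unadjusted p under 0.05, 9.4% of all tested genes were higher and 12.6% lower, the shares against which such counts in the gene lists are to be read. The lists and their members were chosen with earlier results of these data known, so the counts in them are a description.

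The cells of all 4 arrays carried high levels of the ESC markers. Pou5f1, the central pluripotency factor, read 10.37 and 10.39 on the scrambled arrays and 10.55 and 10.54 on the KD1 arrays, and Sox2 lay between 10.61 and 11.07. Markers of other lineages ranged widely. Elf5 of trophectoderm lay between 3.62 and 3.67 and Mesp1 of mesoderm between 3.93 and 4.28, while the neural markers Sox1 and Nes lay between 6.09 and 6.57 and between 5.84 and 7.63. The endoderm genes Gata6, Dab2 and Lama1 were also above the dim range in KD1 and are described further on. Most of the feeder markers checked were bright on every array, but not all. Col1a1, the main collagen of fibroblasts, read 9.0 and 8.98 on the scrambled arrays, 9.0 on KD1 replicate 1 and 7.87 on KD1 replicate 2. Col1a2, Col3a1 and Thy1 lay between 5.87 and 8.92 on the 4 arrays. Lum was dim on all of them, at 3.08 and 3.09 in scrambled and 2.98 and 2.79 in KD1 cells. Postn read 5.96 and 5.99 on the scrambled arrays, 5.67 on KD1 replicate 1 and 4.46 on KD1 replicate 2. Over the 32 tested genes of the feeder and fibroblast list the mean level was 7.01 and 7.11 on the scrambled arrays and 6.78 and 6.12 on the KD1 arrays. KD1 replicate 2 thus stood below the other 3 arrays. The median difference of the list was -0.62, but -0.17 without KD1 replicate 2 and -0.93 without KD1 replicate 1. None of its members was called by limma, and 11 were lower at an unadjusted p under 0.05.

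The targeted gene was lower in KD1. Smarcd1 read 8.67 and 8.68 on the scrambled arrays and 7.75 and 7.78 on the KD1 arrays, so the groups did not overlap. The difference was -0.91 ± 0.11 (SE, limma adjusted p = 0.0294), or 1.88-fold lower. Without KD1 replicate 1 or 2 the adjusted p was 0.215 and 0.217, and in a fit to all 12 arrays 0.225. Its paralogs, which can take the place of BAF60a in the complex, were not called: Smarcd2 differed by 0.01 ± 0.15 and Smarcd3 by 0.19 ± 0.24. Of 29 tested BAF subunits, 2 were lower and 0 higher with limma, and 7 and 0 at an unadjusted p under 0.05. The other lower one was Brd7, a bromodomain subunit of the polybromo form of the complex, at -0.73 ± 0.12. Brd7 lies on chromosome 8, whose genes as a whole were lower in KD1, as given further on. The ATPase Smarca4 (-0.25 ± 0.13) and the core subunit Smarcb1 (-0.20 ± 0.13) were not called. The median of the BAF list was -0.16, and -0.25 without scrambled replicate 1. Of 28 polycomb subunits, which antagonise BAF on chromatin, limma called 0, with 4 at an unadjusted p under 0.05 and a median of 0.10 (0.03 to 0.18 with single arrays left out).

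**Figure D1:**
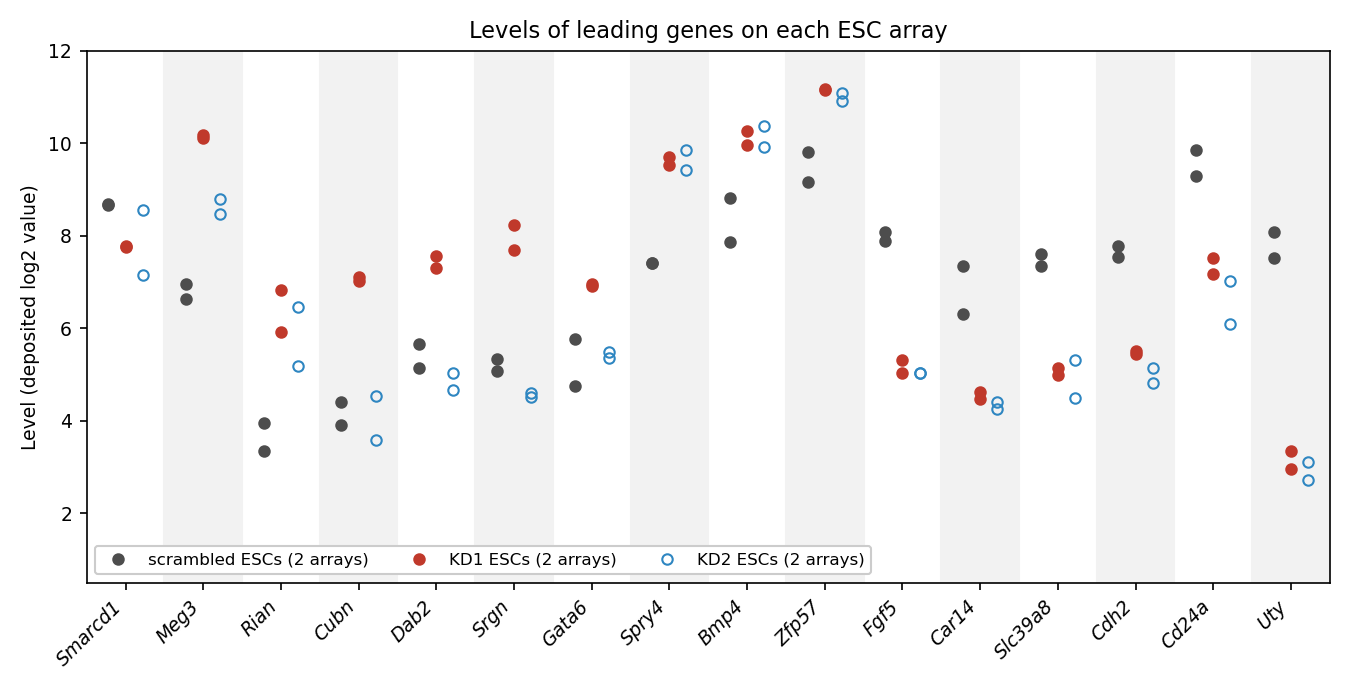
Deposited log2 level of 16 leading genes on each undifferentiated array, 1 point per array, for scrambled (2 arrays), KD1 (2) and KD2 (2) ESCs. The KD1 points sit apart from the scrambled points for every gene shown, while the KD2 points lie near scrambled for Cubn, Dab2 and Srgn and near KD1 for Spry4, Zfp57 and Fgf5.

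Of 19 tested genes of the primed epiblast, 4 were lower in KD1 and 0 higher by limma, and 7 of the other members lay above 0. Fgf5, a growth factor that marks the epiblast after implantation, read 7.88 and 8.09 on the scrambled arrays and 5.03 and 5.32 on the KD1 arrays. This was a difference of -2.81 ± 0.16 (SE, limma adjusted p = 0.00409), or 7.02-fold lower, the third largest decrease among the named genes. Car14, a membrane carbonic anhydrase, read 6.30 and 7.35 against 4.47 and 4.61 in KD1 (-2.29 ± 0.33). Pim2, a survival kinase encoded on the X chromosome, and the transcription factor Sox4 were lower by -2.05 ± 0.22 and -1.36 ± 0.21. These were the 4 called members. At an unadjusted p under 0.05, 9 were lower (12.6% of all tested genes were) and 0 higher. As the list was chosen with earlier results of these data known, these counts describe it and test nothing. Fewer primed cells and less RNA per cell cannot be told apart on such arrays. The scrambled arrays themselves differed here: the median of the list was 0.46 higher on scrambled replicate 2 than on replicate 1. The list's median difference was -0.67, but -0.28 without scrambled replicate 2 and -0.87 without scrambled replicate 1. Otx2, which drives the exit from the naive state, read 8.43 and 8.73 against 7.59 and 8.02 (-0.77 ± 0.19, adjusted p = 0.0929 with limma). The de novo DNA methyltransferase gene Dnmt3b differed by -1.22 ± 0.28 and was not called either.

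Among 31 naive and general pluripotency genes, 1 was higher and 2 were lower with limma. Zfp57, a zinc finger protein that protects imprints from demethylation, read 9.80 and 9.16 against 11.15 and 11.17 in KD1. Its difference was 1.68 ± 0.22 (SE, limma adjusted p = 0.0311). The lower members were Dppa3, a maternal factor also known as Stella, at -1.19 ± 0.16, and the RNA-binding protein gene Lin28a at -1.04 ± 0.13. Lin28a read 8.57 on both scrambled arrays and 7.43 and 7.63 on the KD1 arrays. The naive factor gene Klf4 read 8.24 and 6.88 on the scrambled arrays, a gap of its own, against 9.31 and 9.08 in KD1 (1.63 ± 0.42, limma adjusted p = 0.0989). Tbx3 read 7.90 and 6.58 against 9.13 and 8.59 in the same way (1.62 ± 0.43). The median of the list was 0.34, with 24 members above 0. Scrambled replicate 2 was lower than replicate 1 by a median of -0.36 over these genes. Without scrambled replicate 2 the median difference was 0.20, and without scrambled replicate 1 it was 0.53.

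Of 12 tested visceral endoderm receptors and carriers, 2 were higher, both of 1 endocytic route. Cubn, the receptor that takes up vitamin B12 carriers and lipoproteins in visceral endoderm, read 3.90 and 4.40 on the scrambled arrays and 7.10 and 7.03 on the KD1 arrays. Both scrambled arrays were dim, under the filter level, so no fold is given. The measured difference was 2.92 ± 0.19, with a limma adjusted p of 0.00444 in the fit without the filter. Dab2, a clathrin adaptor for that receptor, read 5.13 and 5.65 against 7.57 and 7.30 (2.05 ± 0.20). Limma called 0 members lower, and 4 were higher and 0 lower at an unadjusted p under 0.05. Lrp2, the partner receptor of Cubn, read 7.01 and 8.69 against 7.58 and 7.47, so its groups overlapped. Apoa1, an apolipoprotein gene of the same list, was not called (0.19 ± 0.13). The list's median was 0.17, and 0.11 to 0.26 with single arrays left out.

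The transcription factors of the lineage did not pass. Gata6 read 5.77 and 4.76 on the scrambled arrays and 6.91 and 6.95 on the KD1 arrays. The groups did not overlap, but the gap between the scrambled arrays left a difference of 1.66 ± 0.32 with a limma adjusted p of 0.0572. Gata4 read 5.25 and 5.36 against 5.88 and 5.84 (0.55 ± 0.12), and Sox17 read 4.61 and 4.71 against 4.89 and 4.82 (0.20 ± 0.12). Of 9 tested factors limma called 0, with 3 higher and 1 lower at an unadjusted p under 0.05. The median was 0.20, but 0.06 without scrambled replicate 2 and 0.36 without scrambled replicate 1.

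Parietal endoderm secretes basement membrane in bulk. In the list of basement membrane and other parietal endoderm genes, limma called 5 of 21 tested members higher and 1 lower. Of all tested genes 1.13% were higher and 1.87% lower. At an unadjusted p under 0.05, 9 members were higher and 4 lower. In all 8 members lay below 0, among them the keratin genes Krt8 (-1.11 ± 0.39) and Krt18 (-1.47 ± 0.32), which were not called. The collagen IV chains Col4a1 (0.97 ± 0.15) and Col4a2 (0.85 ± 0.12) rose, although they lie on chromosome 8. So did the collagen-modifying enzyme genes P4ha2 (1.22 ± 0.17) and Plod2 (0.90 ± 0.13). Srgn, the serglycin proteoglycan, read 5.08 and 5.33 against 8.24 and 7.70, a difference of 2.77 ± 0.21 (SE, limma adjusted p = 0.00954). The laminin chain gene Lama1 read 7.83 and 6.86 against 8.73 and 8.90 and was not called (1.47 ± 0.31, limma adjusted p = 0.0671). Plau, a plasminogen activator, was lower by -0.83 ± 0.12. The list's median was 0.20, and 0.35 without KD1 replicate 2. Fibroblasts also make collagen IV and these enzymes. The feeder list, whose lower level rested largely on KD1 replicate 2 and had 0 called members (11 lower at an unadjusted p under 0.05), was given above, and its part in these genes was not tested. Of 10 receptor genes tied to the lineage, Pdgfra, the PDGF receptor of primitive endoderm, rose by 1.04 ± 0.17. Klb, the co-receptor for endocrine FGFs, read 3.96 and 3.57 against 5.22 and 4.89 (1.28 ± 0.19), dim in scrambled cells. The other 8 were not called, and the median of the 10 was 0.62, with 0.43 without KD1 replicate 1.

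In the signalling lists 1 to 3 members each were called for FGF, Nodal and BMP. Of all tested genes 1.13% were called higher and 1.87% lower. Spry4, an inhibitor of FGF receptor signalling, read 7.41 and 7.42 on the scrambled arrays and 9.54 and 9.71 on the KD1 arrays (2.20 ± 0.12, limma adjusted p = 0.00409). Phlda1 was the other higher member of the FGF-ERK list (1.35 ± 0.21), and Fgf5 the lower one, of 22 tested. At an unadjusted p under 0.05, 7 of the 22 were higher and 4 lower, against 9.4% and 12.6% of all tested genes. The list's median was 0.07, but -0.11 without KD1 replicate 1 and 0.29 without KD1 replicate 2. The feedback genes Dusp6 (0.10 ± 0.17) and Spry2 (0.31 ± 0.13) were not called. Of 18 genes in the Nodal and activin list 3 were lower and 0 higher with limma, and 6 and 3 at an unadjusted p under 0.05. Lefty2, a secreted Nodal antagonist and target, read 10.13 and 10.06 against 8.77 and 8.0 (-1.71 ± 0.26). Foxh1, the factor that brings SMADs to Nodal targets, fell by 1.14, and Nodal itself read 10.36 and 10.21 against 9.59 and 9.40 (-0.80 ± 0.13). Nodal lies in a stretch of chromosome 10 whose genes were lower together, as described below. Lefty1 read 10.21 and 11.02 against 8.73 and 9.30 (-1.60 ± 0.31) and did not pass with limma, at an adjusted p of 0.0576. Bmp4, a ligand that acts with LIF to hold ESCs undifferentiated, read 8.81 and 7.86 against 10.27 and 9.96 (1.78 ± 0.31, limma adjusted p = 0.0481). It was the called member of 19 in the BMP list. The Id genes, targets of that pathway, were not called. Id1 was at -0.10 ± 0.21, Id2 at -0.25 ± 0.19, Id3 at 0.17 ± 0.18 and Id4 at 0.51 ± 0.19. At an unadjusted p under 0.05, 3 members of the BMP list were higher and 4 lower. Of 14 Wnt targets and antagonists limma called 0, with 3 at an unadjusted p under 0.05.

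**Figure D2:**
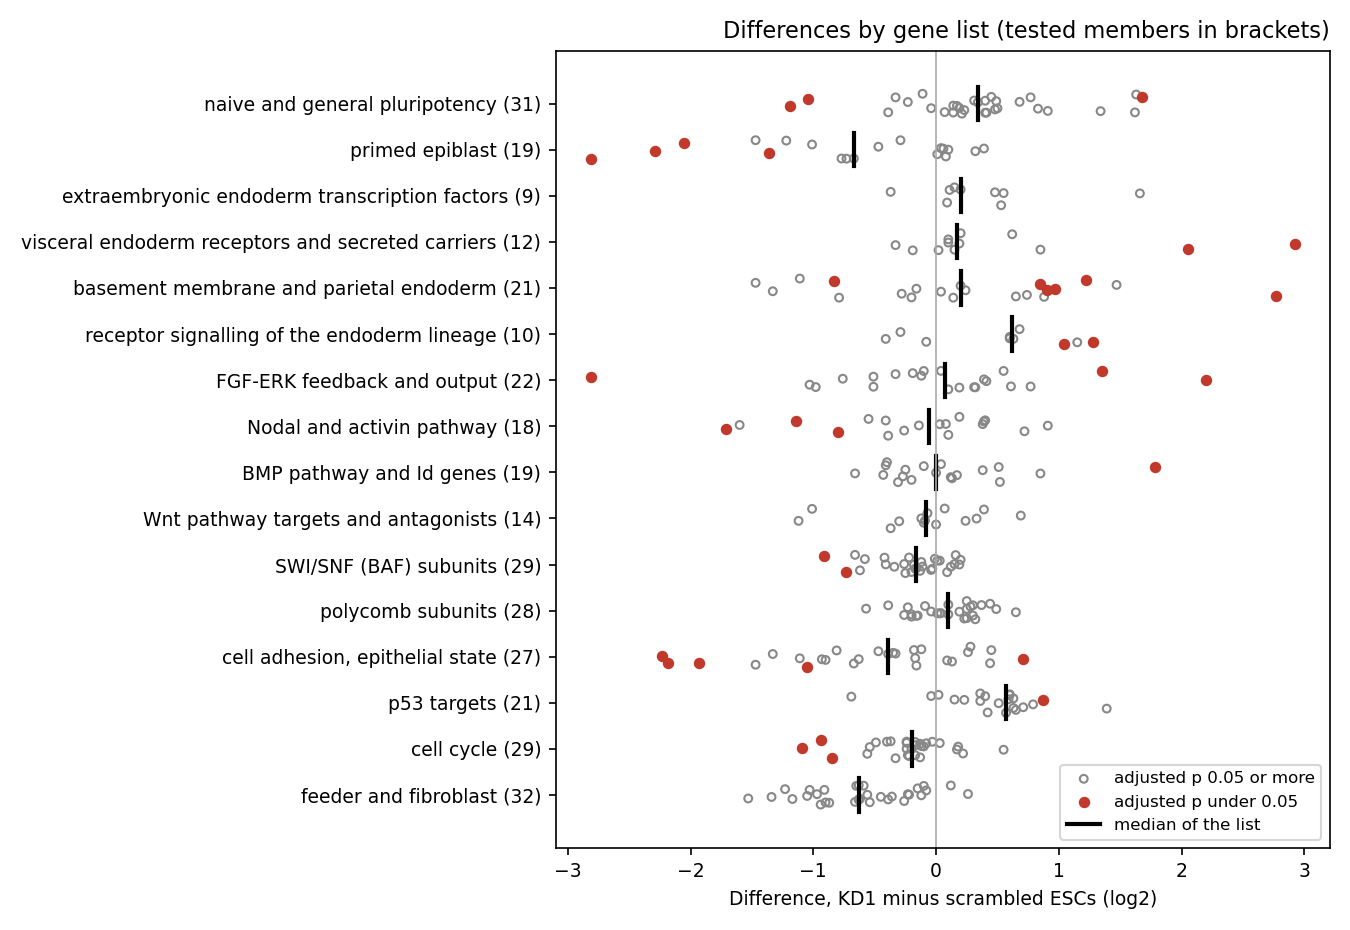
Difference between KD1 and scrambled ESCs (log2, horizontal axis) for each tested member of 16 gene lists, 1 point per gene, with filled red points for an adjusted p under 0.05 and a bar at the list's median. The primed epiblast median is -0.67 with 4 filled points, all below 0, while the p53 target median is 0.57 with 1 filled point.

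Several adhesion genes were lower. Cdh2, N-cadherin, read 7.53 and 7.78 on the scrambled arrays and 5.51 and 5.45 on the KD1 arrays (-2.18 ± 0.14, limma adjusted p = 0.00486). The desmosomal cadherin gene Dsc2 differed by -1.05 ± 0.14. The surface glycoprotein gene Cd24a (-2.23 ± 0.22) and the gap junction gene Gja1 (-1.93 ± 0.16) were lower too and belong to the same stretch of chromosome 10 as Nodal. Gja1 read 11.16 and 11.43 against 9.24 and 9.50. Dsg2, another desmosomal cadherin gene, was higher by 0.71 ± 0.12. In all limma called 4 of 27 members lower and 1 higher, against 1.87% and 1.13% of all tested genes. At an unadjusted p under 0.05, 13 were lower and 2 higher. The median was -0.39, and -0.45 to -0.32 with single arrays left out. The epithelial cadherin gene Cdh1 differed by -0.47 ± 0.13 and was not called.

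Genes driven by p53 leaned upward with 1 call. Zmat3, an RNA-binding target of p53, read 6.93 and 7.02 against 7.81 and 7.88 (0.87 ± 0.12, limma adjusted p = 0.0323). Of 21 tested targets 19 lay above 0, with a median of 0.57, and 15 were higher at an unadjusted p under 0.05 against 1144 of 12175 genes. The apoptosis gene Perp had the largest difference (1.39 ± 0.25) and missed the threshold at a limma adjusted p of 0.0505. Cyclin genes were lower for Ccnd2 (-1.09 ± 0.17) and Ccne2 (-0.94 ± 0.12), and the mitotic kinase gene Cdk1 by -0.85 ± 0.13, again in the chromosome 10 stretch. The other 26 of 29 cell cycle genes were not called and the median was -0.20. Of the 29, 8 were lower and 0 higher at an unadjusted p under 0.05. Of 20 cholesterol synthesis genes, 25 glycolysis and hypoxia genes, 23 amino acid stress genes and 13 interferon response genes limma called 0 in each list. At an unadjusted p under 0.05 their counts were 3 and 0, 4 and 1, 6 and 2, and 3 and 2, lower and higher, where all tested genes had 12.6% lower and 9.4% higher.

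Single genes of other lineages also passed. Kdr, the VEGF receptor of blood and vessel progenitors and dim in scrambled cells, rose by 1.08 ± 0.17, Ncam1 by 1.18 ± 0.14 and the trophoblast gene Plet1 by 1.41 ± 0.23. In the germline list 2 of 18 tested genes were higher and 3 lower, against 1.13% and 1.87% of all tested genes. Mael (1.33 ± 0.21) and Dazl (0.92 ± 0.15) rose. The X-linked Usp26 read 7.39 and 7.82 against 5.11 and 6.05 (-2.03 ± 0.32), and Prdm1, which specifies germ cells and lies in the chromosome 10 stretch, fell by 1.59.

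The remaining genes among the 15 largest increases and decreases included several membrane and surface proteins. Adgrg6, an adhesion G protein-coupled receptor gene, read 3.82 and 4.36, dim, against 6.16 and 6.42 (2.20 ± 0.21). The intestinal peptide transporter gene Slc15a1 read 5.49 and 5.22 against 7.58 and 6.83 (1.85 ± 0.26). Gabbr1, a GABA-B receptor subunit gene, read 7.49 and 7.23 against 8.91 and 9.12 (1.66 ± 0.15). Atp11a (1.66 ± 0.17), Mmrn2 (1.59 ± 0.24), Galnt6 (1.55 ± 0.24) and Ano3 (1.53 ± 0.26) completed the increases. On the lower side, Slc39a8, a zinc and manganese importer gene, read 7.34 and 7.61 against 4.99 and 5.13 (-2.42 ± 0.14, limma adjusted p = 0.00409). Mmp25, a membrane-anchored metalloprotease gene, read 6.75 and 8.16 against 4.95 and 5.12 (-2.42 ± 0.43). Lpar4, a lysophosphatidic acid receptor gene on the X chromosome, read 8.22 and 9.03 against 5.95 and 6.27 (-2.51 ± 0.28). Klhl4 (-2.42 ± 0.30), Fndc3c1 (-2.18 ± 0.23) and Klhl13 (-2.07 ± 0.11) are X-linked as well. Vrtn, which helps set vertebral number, differed by -2.24 ± 0.38, and Marcks, an actin-binding membrane protein gene, by -2.12 ± 0.24.

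The highest increase of all named genes lay in the Dlk1-Dio3 interval of chromosome 12. Meg3, a long noncoding RNA of the maternal chromosome, read 6.64 and 6.96 on the scrambled arrays and 10.12 and 10.17 on the KD1 arrays. Its difference was 3.34 ± 0.15 (SE, limma adjusted p = 0.00393), or 10.2-fold. Rian, the noncoding RNA that hosts many of the small nucleolar RNAs, read 3.34 and 3.96 against 5.92 and 6.83. Its difference was 2.73 ± 0.34, with a limma adjusted p of 0.0291 in the fit without the filter. The protein-coding genes at the ends of the interval did not follow: Dlk1 read 6.09 and 6.08 against 6.28 and 6.11, and Dio3 read 5.02 and 4.13 against 4.89 and 4.65. In RefSeq gene order 48 genes of the array lie from Dlk1 to Dio3, 40 of them miRNA genes. Over all 48, without a filter on dim genes, 45 lay above 0, against 52.9% of all 19938 genes, and the median was 0.53. Of the 25 bright enough to test, 12 were called higher and 0 lower by limma, with 20 and 0 at an unadjusted p under 0.05. A gene that is bright only in KD1 enters the test because it is higher there: 9 of the 25 did so, and 7 of the 12 called genes had both scrambled arrays under the filter level of 4.58, Rian among them. The counts of tested genes are therefore a description. The 23 dim genes had differences from -0.06 to 2.16, and 20 lay above 0.

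Printed here are all RefSeq mature miRNAs of the 5 miRNA genes of the interval with the largest called differences, chosen after their values were seen, to show that they carry different seeds, the stretch through which a miRNA pairs with messages. The sequences are from RefSeq (GRCm38.p6, plus strand of chromosome 12), 5′ to 3′, with the seed, bases 2 to 8, in capitals. All 40 miRNA genes matched an entry there, and the seed of no mature miRNA of the 9 called genes was shared with another from the interval.
miR-382-5p at chr12:109733781-109733802: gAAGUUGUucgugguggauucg
miR-382-3p at chr12:109733819-109733840: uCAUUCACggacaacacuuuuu
miR-377-5p at chr12:109740515-109740536: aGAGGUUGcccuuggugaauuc
miR-377-3p at chr12:109740553-109740574: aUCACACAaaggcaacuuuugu
miR-679-5p at chr12:109715587-109715608: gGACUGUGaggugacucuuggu
miR-679-3p at chr12:109715624-109715645: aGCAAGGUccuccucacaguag
miR-300-5p at chr12:109724318-109724339: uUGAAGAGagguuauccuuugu
miR-300-3p at chr12:109724363-109724384: uAUGCAAGggcaagcucucuuc
miR-487b-5p at chr12:109727347-109727367: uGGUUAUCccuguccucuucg

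The labelled cRNA was made from total RNA, and the probes for a miRNA gene can read the precursor or a longer transcript across it, so these values are not levels of the mature miRNAs. Mir382 read 3.15 and 3.51 on the scrambled arrays and 5.95 and 5.98 on the KD1 arrays (2.63 ± 0.16). Mir377 read 2.59 and 2.74 against 5.08 and 5.30 (2.53 ± 0.14), and Mir679 read 5.40 and 5.43 against 7.66 and 7.93 (2.38 ± 0.14). Mir300 differed by 2.25 ± 0.15 and Mir487b by 2.07 ± 0.12. In each of these 5 genes both KD1 arrays lay above both scrambled arrays, as in 25.6% of all tested genes. The 5 were chosen for their large called differences, so this only describes them. The other called miRNA genes were Mir329 (1.30 ± 0.17), Mir494 (1.04 ± 0.14), Mir668 (1.01 ± 0.12) and Mir485 (1.01 ± 0.12), and the small nucleolar RNA gene DQ267102 differed by 2.68 ± 0.20. Mir382, Mir377, Mir300, Mir487b, Mir329 and Mir485 had both scrambled arrays under the filter level and were tested through KD1 alone. Their calls are a description. In the fit without the filter, limma called 16 of the 48 genes of the interval higher and 0 lower. Mir127, which lies opposite Rtl1, read 4.15 and 4.57 against 5.34 and 5.89 and did not pass (1.26 ± 0.23, limma adjusted p = 0.0531). Of 76 miRNA genes tested elsewhere in the genome, limma called 0 higher and 1 lower, with 9 higher and 4 lower at an unadjusted p under 0.05, and their median was 0.10. The lower one was Mir363 on the X chromosome, at 5.79 and 6.25 against 4.11 and 4.13.

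**Figure D3:**
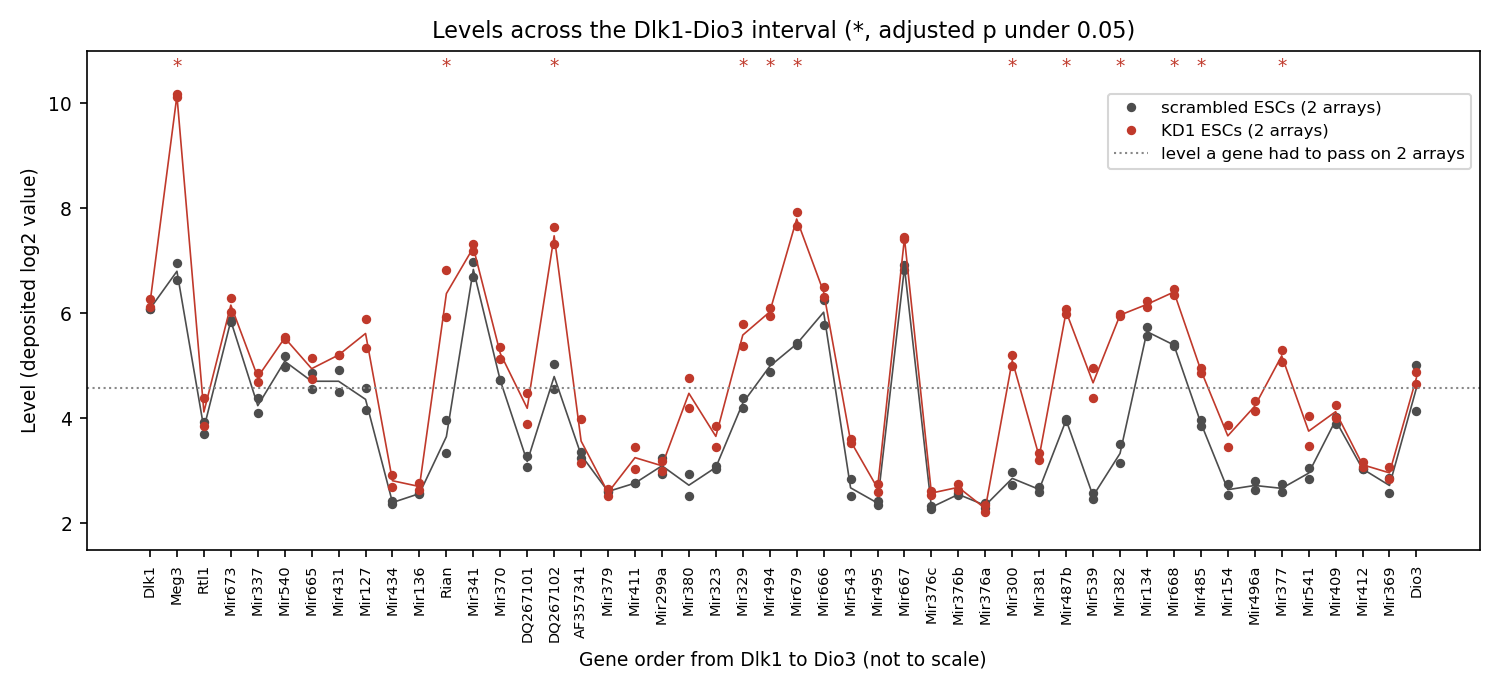
Deposited log2 level of the 48 genes from Dlk1 to Dio3 in gene order, with points for the 2 scrambled and 2 KD1 ESC arrays, lines through the group means and a dotted line at the level used as filter. The KD1 line runs above the scrambled line at Meg3, Rian and 9 starred miRNA genes, and the lines meet at Dlk1 and Dio3.

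Imprinted genes elsewhere showed no such rise. Of 25 tested, limma called 3 lower and 0 higher, against 1.87% and 1.13% of all tested genes. At an unadjusted p under 0.05, 8 were lower and 1 higher, against 12.6% and 9.4% of all tested genes. The median was -0.12. Peg3, a zinc finger gene expressed from the paternal allele, read 7.88 and 8.17 against 6.37 and 6.52 (-1.58 ± 0.15, limma adjusted p = 0.0184). Mest, also paternally expressed, read 10.02 and 10.11 against 8.95 and 9.0 (-1.08 ± 0.12), and the growth inhibitor gene Grb10 differed by -0.75 ± 0.12. Calcr had the largest difference of the list, at 6.42 and 7.93 against 4.35 and 4.78, and did not pass (-2.61 ± 0.47, limma adjusted p = 0.0525). Igf2 (-0.51 ± 0.28) and Igf2r (0.25 ± 0.17) were not called either. Beside Zfp57 and Dppa3, 0 of the other 14 genes for DNA methylation and imprint protection were called by limma, with Trim28, the partner of Zfp57, at -0.14 ± 0.12. Their list had 3 higher and 4 lower members at an unadjusted p under 0.05.

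The lower calls were uneven along the genome. Of the 228, 53 (23.2%) lay in 1 stretch of chromosome 10, 42 (18.4%) on chromosome 8, 22 (9.65%) on the X and 3 (1.32%) on the Y chromosome, which left 108 (47.4%) elsewhere. The chromosome 10 stretch was found in these data as a run in which the running median of 21 neighbouring tested genes fell below -0.3, so its own level is a description with no test. It holds 119 tested genes from Marcks to Cisd1. Of these 105 (88.2%) lay below 0, against 50.8% of all tested genes, and 53 (44.5%) were called lower. The median was -0.77, with quartiles of -0.95 and -0.47. Relative to the scrambled mean, the median over the stretch was -0.73 and -0.76 on the KD1 arrays and -0.03 and 0.03 on the scrambled arrays. On either side the chromosome returned to 0: the 100 genes from Plekhg1 to Hdac2 had a median of -0.05 and 1 lower call, and the 370 from Ipmk to Itga7 had 0.02 and 2 lower calls. Among the lower genes of the stretch, Ddit4, a stress-induced inhibitor of mTORC1, read 7.91 and 7.82 against 6.46 and 6.36. Asf1a, a histone chaperone gene, read 7.11 and 7.4 against 5.45 and 5.65, and Ddx21, an RNA helicase gene of the nucleolus, 10.33 and 10.25 against 9.26 and 9.16. These 3 were picked after their values were seen. Srgn was the only gene of the stretch called higher.

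Measurements made on other arrays can be set beside that run. The KD1 cells after retinoic acid, compared with their own scrambled arrays, had medians of -0.65, -0.64, -0.62 and -0.67 over the same 119 genes. Limma called 82 of these lower, where 18.3% of all tested genes were lower. With KD1 arrays 1 and 2 of that stage alone it called 76, against 14.3% of all tested genes. The KD2 ESC arrays had -0.88 and -0.54 against the shared scrambled arrays. The cause of the run was not tested.

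On chromosome 8 the shift was smaller and wider. The 674 tested genes had a median of -0.32, on the KD1 arrays -0.31 and -0.33, and 533 (79.1%) lay below 0. Limma called 42 lower (6.23%) and 6 higher. The largest called decreases there were Rnf170, a ubiquitin ligase gene, at 7.48 and 7.39 against 5.79 and 5.88, and Slc5a5, the sodium-iodide symporter gene, at 7.35 and 7.24 against 5.76 and 5.80. Both were named after their values were seen. After retinoic acid the KD1 medians for chromosome 8 were -0.30, -0.29, -0.37 and -0.34. The KD2 ESC arrays had -0.47 and -0.16 against the shared scrambled arrays. Of 4 Y-linked genes 3 were lower: Uty read 7.51 and 8.08 against 2.96 and 3.35 and Eif2s3y read 8.69 and 8.51 against 3.94 and 4.17. Their differences were -4.64 ± 0.23 and -4.54 ± 0.14 (SE, limma adjusted p = 0.00409 and 0.00109). Uba1y differed by -1.20 ± 0.15, while Sry was at 5.55 and 5.25 against 5.34 and 5.48. The X chromosome had a median of -0.10 with 22 of 378 genes lower. Fgf5, Meg3, Cubn, Dab2, Spry4, Bmp4, Zfp57 and Cdh2 lie on none of these 4 regions.

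**Figure D4:**
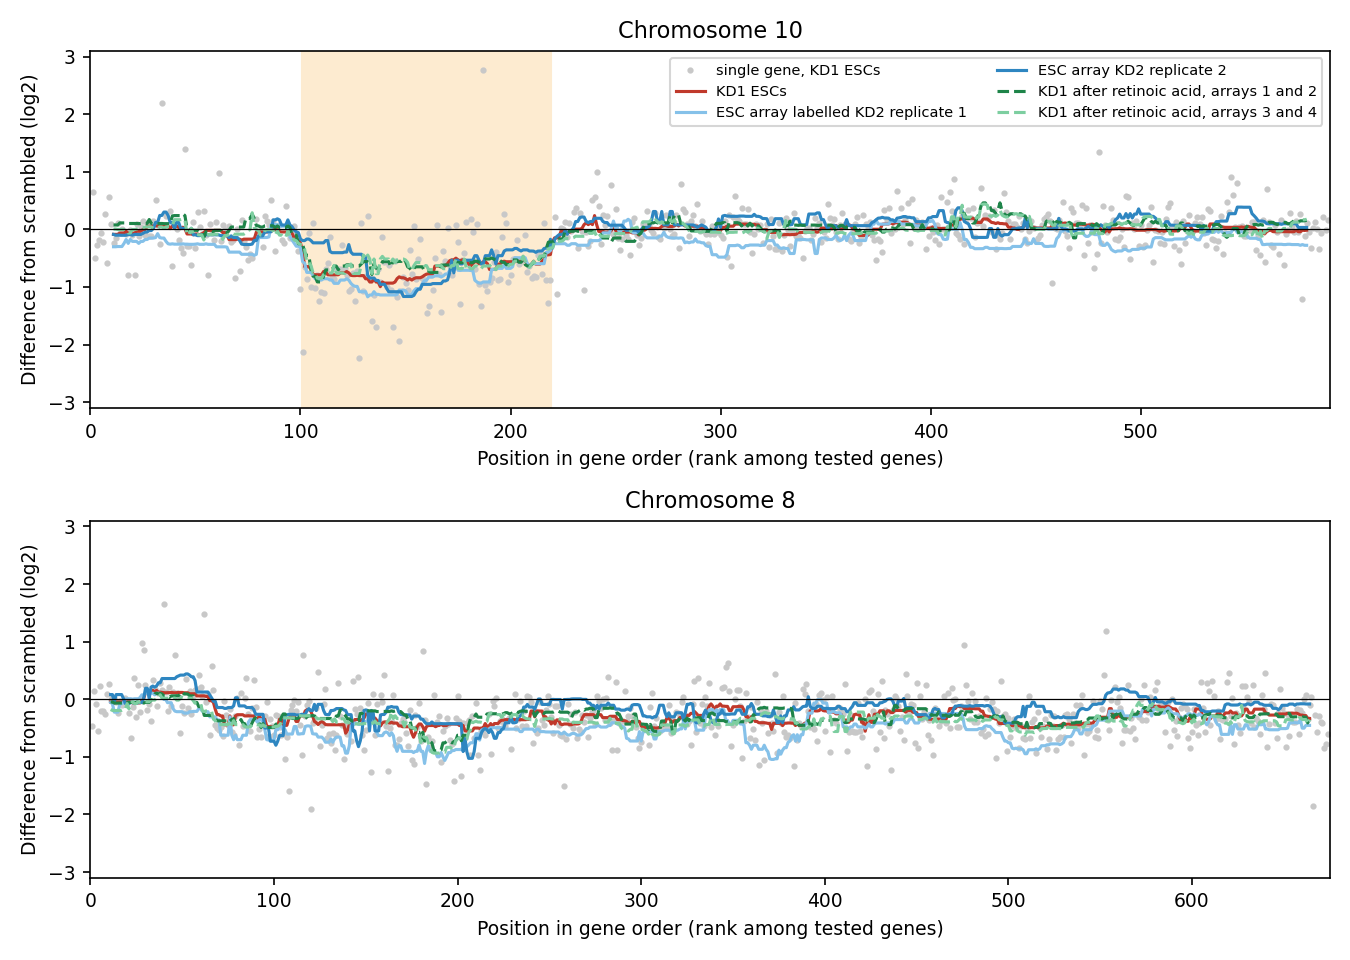
Difference from scrambled (log2) along chromosomes 10 and 8 in gene order, with 1 grey point per gene for KD1 ESCs and running medians of 21 genes for KD1 ESCs, each KD2 ESC array and the KD1 arrays after retinoic acid. Over the shaded stretch of chromosome 10 all 5 lines run below 0, and on chromosome 8 the KD1 line lies below 0 along most of its length.

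The number of calls moved with these regions. Without the chromosome 10 stretch limma called 154 genes, 66 higher and 88 lower, and all 154 were among the 311 calls made outside it with every gene in the fit. The adjustment runs over the genes in the fit, so taking out many called genes can by itself raise the adjusted p of the rest. Without that stretch and chromosomes 8, 14, X and Y it called 101, 55 higher and 46 lower. In the second setting 24 of 40 named genes remained called. Chromosome 14 was left out because its genes shift in the KD2 arrays. In KD1 ESCs their median was 0.01.

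The second knockdown line gave some of these differences and not others. KD1 and KD2 share their scrambled arrays, so their values are only set side by side, and the array labelled KD2 replicate 1 read 8.56 for Smarcd1 against 8.67 and 8.68 in scrambled cells, which goes against its label. KD2 replicate 2 read 7.16. Fgf5 read 5.03 and 5.04 on the KD2 arrays, where KD1 read 5.03 and 5.32. Spry4 was at 9.86 and 9.43, Zfp57 at 11.08 and 10.91, Bmp4 at 10.37 and 9.91 and Cdh2 at 5.14 and 4.81, all of them on the KD1 side. Meg3 lay between, at 8.80 and 8.46, above both scrambled arrays and below both KD1 arrays. Of the endoderm genes, Cubn, Dab2, Srgn and Gata6 were on the scrambled side. Cubn read 4.53 and 3.59 in KD2, Dab2 4.67 and 5.04, Srgn 4.59 and 4.51 and Gata6 5.49 and 5.36, each near or below the scrambled values. Col4a1 was split, at 7.14 on the array labelled KD2 replicate 1 and 6.24 on replicate 2. It read 6.38 and 6.53 in scrambled and 7.58 and 7.27 in KD1 cells. Slc15a1 read 8.45 on the array labelled KD2 replicate 1 and 6.30 on replicate 2.

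After retinoic acid, on arrays that share nothing with the ESC comparison, part of the differences was found again. Of all tested genes limma called 4476 (36.8%) at that stage. The 4 KD1 arrays of that stage do not form 1 set: relative to the scrambled mean, chromosome 14 had medians of 0.04 and 0.02 on arrays 1 and 2 and of 0.33 and 0.34 on arrays 3 and 4, so counts are given with and without arrays 3 and 4. Of the 137 genes higher in KD1 ESCs, 60 (43.8%) were higher after retinoic acid too, where 18.5% of all tested genes were higher. With arrays 1 and 2 alone there were 57 (41.6%), against 16.7% of all tested genes. The 60 made up 2.67% of the 2250 genes higher at that stage, while 1.13% of all tested genes were higher in KD1 ESCs. Of the 228 lower genes, 145 (63.6%) were lower again, where 18.3% of all tested genes were lower. With arrays 1 and 2 there were 135 (59.2%), against 14.3% of all tested genes. The 145 made up 6.51% of the 2226 genes lower at that stage, while 1.87% of all tested genes were lower in KD1 ESCs. Outside the chromosome 10 stretch and chromosomes 8, X and Y, 52 of 108 (48.1%) were lower again, where 1745 of 11000 tested genes were lower. In the opposite direction went 11 of the higher and 16 of the lower genes.

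By gene, Meg3 kept most of its difference, at 2.85 ± 0.15 after retinoic acid against 3.34 in ESCs, and the interaction, the test of the change between stages, was not called (-0.49 ± 0.22, limma adjusted p = 0.154). Rian (2.31), Dab2 (1.69), Cubn (1.85), Cdh2 (-1.67) and Cd24a (-2.87) passed at both stages with interactions that were not called, with all 4 arrays and with arrays 1 and 2. Gata6 was higher after retinoic acid by 1.91 ± 0.23 (SE, limma adjusted p = 9.28e-05), with levels of 8.94 in scrambled and 10.85 in KD1 cells. Factors that hardly differed in ESCs differed widely then, such as Gata4 (4.34) and Sox17 (3.29), and so did the basement membrane genes Col4a1 (3.67) and Lama1 (4.16). Smarcd1 itself differed by -2.26 ± 0.10 at that stage, and its interaction was called, as were those of 17.9% of all tested genes (-1.35 ± 0.16, limma adjusted p = 0.000377), so the reduction of the targeted gene was not equal in the 2 stages. Bmp4 turned from 1.78 in ESCs to -0.92 ± 0.27 after retinoic acid, called lower there by limma (adjusted p = 0.0214, and 0.0158 with arrays 1 and 2), with an interaction of -2.70 ± 0.42. Zfp57 went from 1.68 to -0.47 ± 0.19, not called with all 4 arrays (limma adjusted p = 0.0768) and called lower with arrays 1 and 2 (-0.66, adjusted p = 0.0379). Its interaction was -2.15 ± 0.29. Slc39a8 turned from -2.42 in ESCs to 2.70 after retinoic acid, the largest interaction of the named genes (5.11 ± 0.18, limma adjusted p = 2.77e-07). Dlk1, level with scrambled in ESCs, differed by -4.09 ± 0.19 after retinoic acid.

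**Figure D5:**
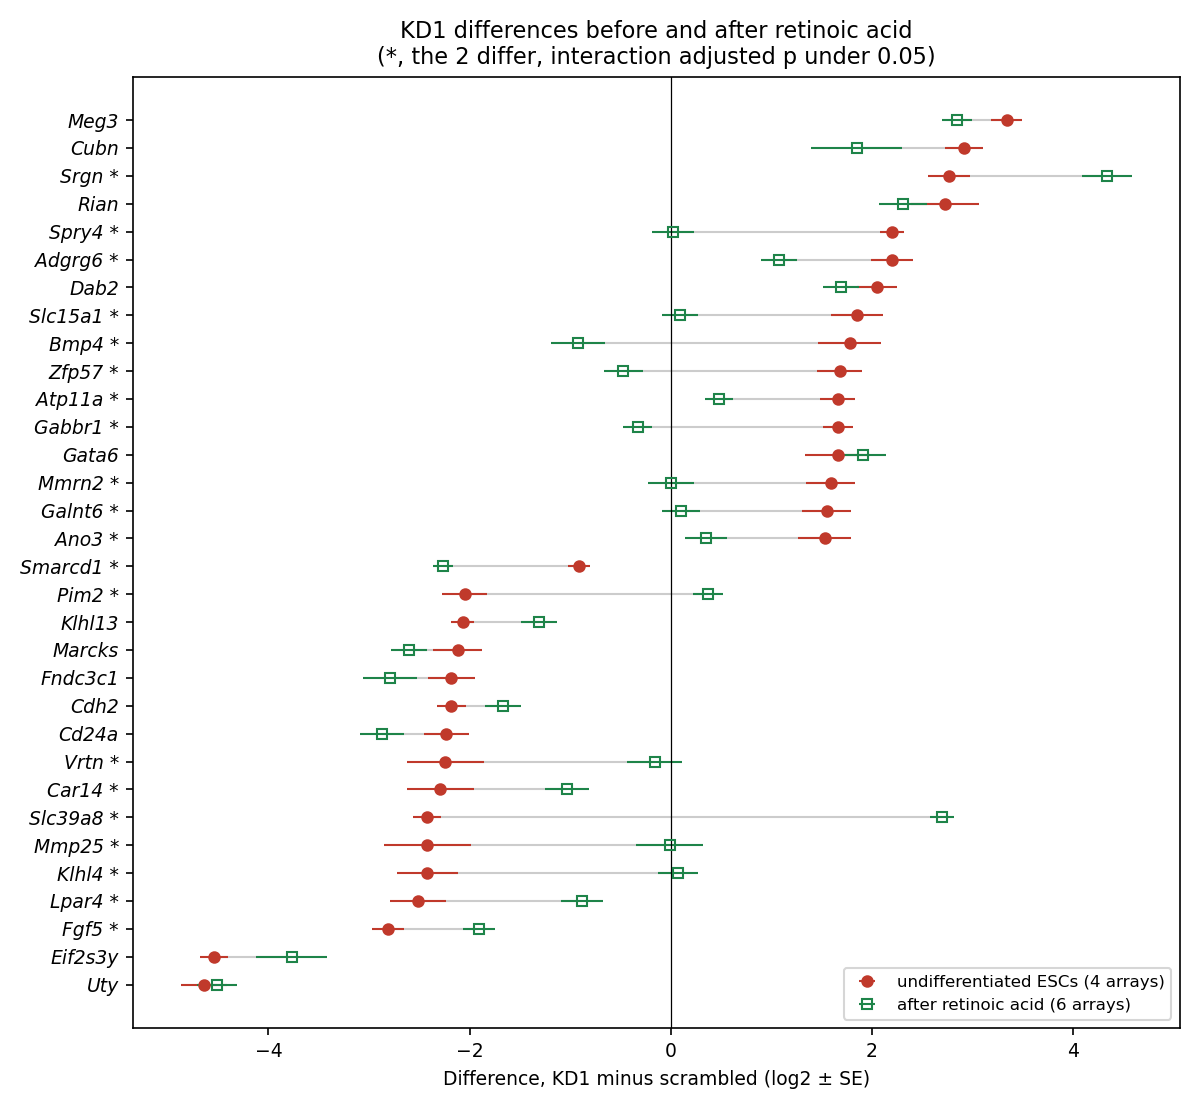
Difference between KD1 and scrambled cells (log2, with SE bars) in ESCs (filled circles, limma fit to 4 arrays) and after retinoic acid (open squares, limma fit to 10 arrays) for the 4 given genes and the 15 largest increases and decreases in ESCs. Slc39a8 lies at -2.42 and 2.70 on opposite sides of 0, whereas Meg3 lies at 3.34 and 2.85.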

How the data were processed

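Per the labels' protocols, biotinylated cRNA was made from total RNA and hybridised to Affymetrix mouse gene arrays, and per the submitters' processing notes the authors computed the deposited log2 values with RMA, which corrects background, quantile-normalises and summarises probes. For the RMA version and genome build, the sources used here give nothing. Of 35556 probe sets, 21789 had 1 gene symbol in the platform annotation, 1621 several and 12146 none listed, and 21698 matched RefSeq by Entrez identifier. For each of 19938 genes the probe set with the highest mean over the 4 arrays was kept. Genes above the percentile 40 (log2 4.58) on at least 2 arrays were tested with limma 3.58.1 (lmFit, eBayes) in R 4.3.3, with p-values adjusted by Benjamini-Hochberg over all tested genes. Folds are 2 to the log2 difference. The change between stages came from a limma fit to 10 arrays without KD2. In data simulated for the ESC comparison (12175 genes), limma recovered 30 of the 50 genes given a log2 change of 1 and 48 of the 50 given a log2 change of 2, with 2 false calls.

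Named were Smarcd1, Meg3, Fgf5 and Gata6, the 15 largest increases and decreases among called genes whose arrays did not overlap, and up to 6 called members of each list, leaving out predicted genes and small RNAs. Other members are named to show values that did not pass. The members and lists were chosen with earlier results of these data known. Alternatives covered the arrays fitted, filters, scaling, probe set choice, replicate block and each array left out.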

Additional observations from a re-analysis of the deposited data

Results flagged for a closer look

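The difference between KD1 and scrambled cells was tested for a change between the ESC and retinoic acid stages with a limma interaction over 10 arrays, which called 2175 of 12175 genes (17.9%). Among the 4 given genes and the largest increases and decreases, 20 of 32 passed. For these the change is the difference after retinoic acid minus that in ESCs.

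Genes higher in KD1 ESCs mostly had smaller differences after retinoic acid. The change was -2.70 for Bmp4, -2.18 for Spry4, -2.15 for Zfp57 and -1.98 for Gabbr1. It was -1.76 for Slc15a1, -1.59 for Mmrn2, -1.44 for Galnt6, -1.18 for Atp11a, -1.18 for Ano3 and -1.12 for Adgrg6. Srgn went the other way, at 1.57.

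For genes lower in KD1 ESCs, the changes that were called were mostly upward. Those not called went both ways, such as Klhl13 at 0.77 or 1.01 with arrays 1 and 2, and Cd24a at -0.64. The change was 5.11 for Slc39a8, 2.49 for Klhl4, 2.42 for Pim2, 2.41 for Mmp25 and 2.08 for Vrtn. It was 1.64 for Lpar4, 1.27 for Car14 and 0.90 for Fgf5. Smarcd1 was the exception among the called changes at -1.35, being further below scrambled after retinoic acid. With KD1 arrays 1 and 2 of that stage alone, Fgf5, Srgn, Ano3 and Car14 were no longer called (limma adjusted p = 0.0704, 0.0505, 0.0544 and 0.0568). The 32 genes were chosen by their ESC values, which enter the change tested here.

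Meg3 read 8.95 on KD1 replicate 1 after retinoic acid, apart from the other 3 KD1 arrays of that stage. This was 1 of 4 genes checked for a stray array, and chance flags about 1 in 20 groups.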

How the results depend on the processing

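The count of 365 genes called in KD1 ESCs became 1118 in a fit to 10 arrays without KD2, 5 with the 6 ESC arrays (893 at an unadjusted p under 0.05), 614 with an intensity trend, 22 at an adjusted p under 0.01 and 180 at a 2-fold minimum. It was 154 without the chromosome 10 stretch and 101 without it and chromosomes 8, 14, X and Y, both added after seeing the data. Leaving out single arrays gave 0 to 1230 calls. Replicate numbers in the labels are shared between groups, and the deviations of same-numbered arrays correlated at 0.25 over only 2 pairs, which does not establish a pairing. The replicate block gave 684 calls. Smarcd1 stayed at -0.91 but was not called with all 12 arrays or the 6 ESC arrays (limma adjusted p = 0.225 and 0.785), and leaving out single arrays moved it from -0.92 to -0.90. The interaction count of 2175 became 786 with all 12 arrays and 1364 to 2144 with single arrays left out, 1364 without KD1 ESC replicate 2 and 1410 without scrambled replicate 2 after retinoic acid. None of the 66 genes chosen by the naming rule reversed under any alternative run for them. With single arrays left out this was bound to be so, as their KD1 and scrambled arrays did not overlap. Small differences of genes not called did reverse. Without scrambled replicate 2, Id1 went from -0.10 to 0.14 and Id3 from 0.17 to -0.05. Without KD1 replicate 1, Smarcd2 went from 0.01 to -0.16. Of 65 called named genes, 59 were still called without scrambled replicate 2, 50 with all 12 arrays and 5 with the 6 ESC arrays. With 2 arrays a group, genes of small difference are mostly missed: in simulated data 1 of 50 genes changed by 0.5 was recovered. The cause of these movements was not tested.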
